A study of Homo sapiens with 5 samples.

Results

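Chromosomes 13 and 18 were followed through 5 in situ Hi-C contact maps of RMG1 cells, cut into bins of 1 Mb. All their bins that could be used were taken, 95 on chromosome 13 and 74 on chromosome 18, or 169 of 2772 bins in all. Contacts were read within each chromosome and with 16 partners, chromosomes 1 to 12, 16, 17, 19 and 20, which gave 32 of all pairs that 23 chromosomes can form. Chromosome 19, with 53 bins, served as the gene-rich contrast of similar size. The description as gene-poor held in the RefSeq annotation of GRCh38.p14. Chromosome 13 had 338 protein-coding genes, or 3.56 per bin used, the lowest of 23 chromosomes. Chromosome 18 had 270, or 3.65 per bin, the second lowest, and chromosome 19 had 1451, or 27.4 per bin, the highest.

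In the interphase nucleus each chromosome fills a territory of its own. Gene-poor chromosomes such as chromosome 18 are known to lie mostly near the nuclear edge, and gene-rich chromosome 19 near the centre. Within a chromosome, active A regions and silent B regions each contact their own kind more often. Condensin II is a ring-shaped complex that compacts chromosomes and is known to help keep territories apart.

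RMG1 is a cell line grown from a human clear cell carcinoma of the ovary. In situ Hi-C ligates DNA ends that lie close together inside intact nuclei, and counts the joined pieces. Both ARID1A KO libraries carried a CRISPR knockout of ARID1A, a DNA-binding part of the nucleosome-moving BAF complex, with wild-type CAPH2. Both CAPH2 KD libraries carried a hairpin against CAPH2, a subunit of condensin II, with wild-type ARID1A. The single control library carried a control hairpin and was wild type for both genes. The knockout therefore differed from the control in method as well as in genotype, and these cannot be told apart. Whether the replicates are separate cultures, or the knockout 1 clone or more, is not stated in the labels, and every p-value reflects no more than how far these 5 libraries spread. Bins of 1 Mb do not allow a check of the targeted genes or of cell type markers.

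The deposited signal was balanced by the authors, so that nearly every bin of a library has the same total. The whole contacts behind it were recovered from the values (the recovered contacts below), and came to 31.4 M and 32.5 M in ARID1A KO, 55.7 M and 85.0 M in CAPH2 KD and 47.9 M in the control. The knockout libraries stood apart in where these contacts lay. Set against the control, contacts per bin on chromosome 18 were 0.678 and 0.654 times as many in ARID1A KO, the lowest ratio of all 23 chromosomes in both libraries. On chromosome 13 the ratios were 0.707 and 0.90, and on chromosome 19 they were 1.46 and 1.36. Over the 23 chromosomes the ratio followed gene density, with a Spearman's rho of 0.80 and 0.92 in the ARID1A KO libraries, as a description of these libraries. In CAPH2 KD the ratios were 0.998 and 0.993 for chromosome 18, 1.02 and 0.999 for chromosome 13 and 0.939 and 0.980 for chromosome 19. The number of copies of a chromosome and the yield of contacts per copy cannot be told apart here, and balancing acts on both. Results are therefore given in the balanced signal and in recovered contacts.

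Chromosome 18 kept most of its contacts to itself in the balanced signal, and more so in ARID1A KO. Of its contacts between bins, 33.8% and 35.1% were with other chromosomes (trans) in ARID1A KO, against 37.5% in the control. These were 41.0% and 41.1% in CAPH2 KD. The means were 34.5% ± 0.902 in ARID1A KO and 41.1% ± 0.0819 in CAPH2 KD (SD, n = 2 each). Both knockout libraries lay below the control and both knockdown libraries above it. In order of trans share chromosome 18 stood at place 2 of 23 in both ARID1A KO libraries, at place 8 in both CAPH2 KD libraries and at place 4 in the control, counted from the lowest. Many of these places were near ties. Places 2 to 8 ran from 37.1% to 38.1% in the control and from 39.7% to 41.0% in the first CAPH2 KD library.

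Chromosome 13 had more trans contacts, 41.3% and 45.8% in ARID1A KO, 48.4% and 48.3% in CAPH2 KD and 46.0% in the control. Its second ARID1A KO library differed from the control by only a small part of the distance between the 2 knockout libraries. Chromosome 19 went the other way, with 55.8% and 58.5% in ARID1A KO, 55.7% and 55.5% in CAPH2 KD and 53.0% in the control. All treated libraries lay above the control there.

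Recovered contacts gave another picture. Chromosome 18 then had 44.5% and 46.7% trans contacts in ARID1A KO, 45.4% and 45.7% in CAPH2 KD and 41.9% in the control, at places 11 to 13 of 23. Chromosome 13 had 44.2% and 43.9% in ARID1A KO, 43.1% and 43.4% in CAPH2 KD and 41.3% in the control. Chromosome 19 had 52.9% and 56.8% in ARID1A KO, 56.3% and 55.8% in CAPH2 KD and 53.2% in the control, so its knockout libraries lay on both sides of the control. For chromosomes 13 and 18 every treated library lay above the control in this form of the data. The direction of the ARID1A KO difference thus turned with the form of the data, while that of CAPH2 KD did not.

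**Figure D1:**
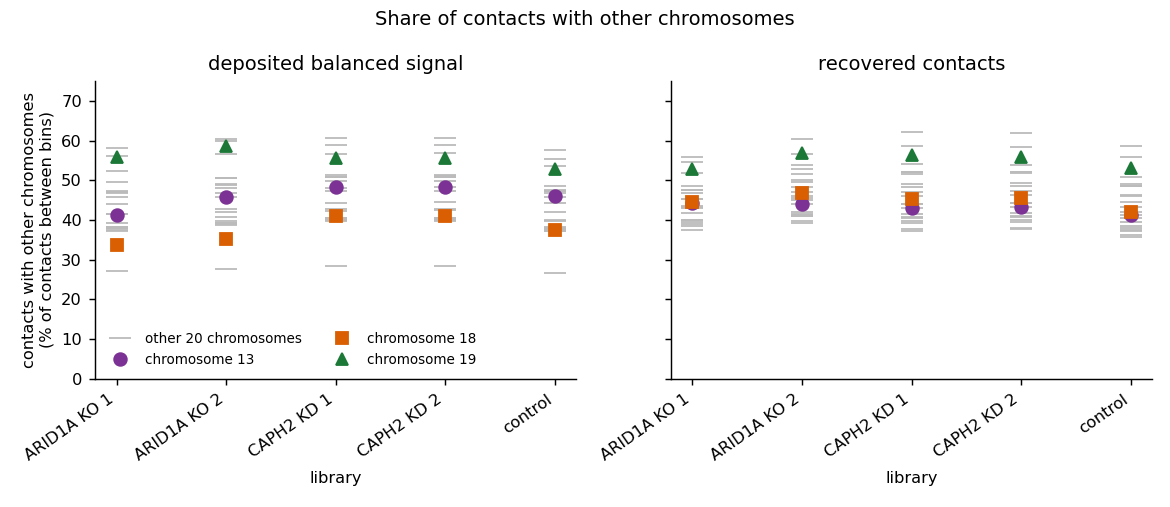
Share of contacts between bins that were with other chromosomes, in percent, by library, in the balanced signal (left) and in recovered contacts (right). Each library has 1 point for chromosomes 13, 18 and 19 and a grey dash for each of the other 20 chromosomes; chromosome 18 lay near the bottom in the balanced signal, at 33.8% and 35.1% in ARID1A KO, and in the middle in recovered contacts.

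The distance between chromosome 18 and chromosome 19 was measured as the difference in log2 of trans over cis contacts (contacts within the chromosome). It was -1.30 and -1.38 in ARID1A KO, -0.85 and -0.84 in CAPH2 KD and -0.91 in the control. The ARID1A KO libraries lay apart from all others, with a log2 fold change against the control of -0.43 (SE 0.0437, limma adjusted p = 0.0353 over the differences between all chromosomes). Of all differences 7.51% passed the test in that comparison. Against CAPH2 KD the log2 fold change was -0.50 (SE 0.0357, limma adjusted p = 0.00887), where 13% of differences passed. CAPH2 KD against the control gave 0.07 (SE 0.0437, limma adjusted p = 0.991), and 0% passed.

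For chromosome 13 minus 19 the values were -0.84 and -0.74 in ARID1A KO, -0.42 and -0.42 in CAPH2 KD and -0.41 in the control. The log2 fold change was -0.39 for ARID1A KO against the control (SE 0.0515, limma adjusted p = 0.0360) and -0.37 against CAPH2 KD (SE 0.0421, limma adjusted p = 0.0196). It was -0.01 for CAPH2 KD against the control (SE 0.0515, limma adjusted p = 0.991).

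None of these calls held in recovered contacts. There chromosome 18 minus 19 was -0.49 and -0.58 in ARID1A KO, -0.63 and -0.59 in CAPH2 KD and -0.65 in the control. The log2 fold change of ARID1A KO against the control turned to 0.12 (limma adjusted p = 0.217), and for chromosome 13 minus 19 it turned to 0.06 (limma adjusted p = 0.705). The spread behind these tests was shared by both replicated groups, and the single control was assumed to vary alike. The median SD over all differences between chromosomes was 0.0517 in ARID1A KO and 0.00331 in CAPH2 KD. With the CAPH2 KD libraries averaged to 1 sample, or with either one left out, the adjusted p of ARID1A KO against the control was 0.319 for both differences, at the same log2 fold changes.

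Each chromosome's contacts were next divided among its partners, as the log2 of observed over expected signal, where the expectation is the product of both chromosomes' totals. Values below 0 are usual in trans, since a chromosome's total is largely its own cis contacts. Chromosome 13 stood closest to chromosomes 12 and 19. With chromosome 12 it had -0.98 and -0.74 in ARID1A KO, -0.60 and -0.60 in CAPH2 KD and -0.52 in the control. With chromosome 19 it had -0.68 and -0.76 in ARID1A KO, -0.37 and -0.40 in CAPH2 KD and -0.57 in the control. The next partner in the control was chromosome 20 at -1.45, and the lowest were chromosomes 2, 7 and 3 at -1.73, -1.72 and -1.71. Both high partners are joined to chromosome 13 by strong single bin pairs, described further on.

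Chromosome 18 stood lower than chromosome 13 with most partners, at a median of -2.13 and -2.16 in ARID1A KO, -1.77 and -1.78 in CAPH2 KD and -1.90 in the control. Chromosome 13 had medians of -1.77 and -1.70 in ARID1A KO, -1.54 and -1.56 in CAPH2 KD and -1.63 in the control. The order of the medians turned in recovered contacts, with -1.68 and -1.65 for chromosome 18 in ARID1A KO, -1.54 and -1.54 in CAPH2 KD and -1.67 in the control, against -1.71 and -1.82, -1.74 and -1.74, and -1.82 for chromosome 13. In the balanced signal the highest partner of chromosome 18 was the small chromosome 20 in all 5 libraries, with -1.54 and -1.68 in ARID1A KO, -1.10 and -1.11 in CAPH2 KD and -1.26 in the control. Chromosomes 16 and 17 came next in the control, at -1.55 and -1.63, and chromosomes 2, 6 and 4 were lowest, at -2.13, -2.11 and -2.10. With gene-rich chromosome 19 it had -1.99 and -1.86 in ARID1A KO, -1.75 and -1.77 in CAPH2 KD and -1.86 in the control.

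Among its 16 partners chromosome 18 had higher values with gene-dense ones, with a Spearman's rho of 0.61 and 0.75 in ARID1A KO, 0.46 and 0.47 in CAPH2 KD and 0.59 in the control. The relation to the number of bins of the partner was tighter, with a rho of -0.88 and -0.78 in ARID1A KO, -0.80 and -0.81 in CAPH2 KD and -0.87 in the control, so short partners stood higher. Gene density and length go together among these partners, and all points of a library share its depth. The totals behind the expectation include cis contacts. A partner with a high trans share of its own therefore stands higher with any chromosome. In the control chromosomes 20, 17 and 16 had trans shares of 53.6%, 57.7% and 47.2%. Chromosomes 2, 6 and 4 had 37.8%, 37.1% and 38.0%. Chromosome 19 had 53.0% but stood near the median with chromosome 18. This part is held in each rho here, also that between chromosomes 13 and 18, and was not separated out. For chromosome 13 the rho with gene density was 0.47 and 0.59 in ARID1A KO, 0.56 and 0.55 in CAPH2 KD and 0.45 in the control. The order of partners was similar for both chromosomes, with a rho between them of 0.53 and 0.91 in ARID1A KO, 0.73 and 0.74 in CAPH2 KD and 0.73 in the control.

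**Figure D2:**
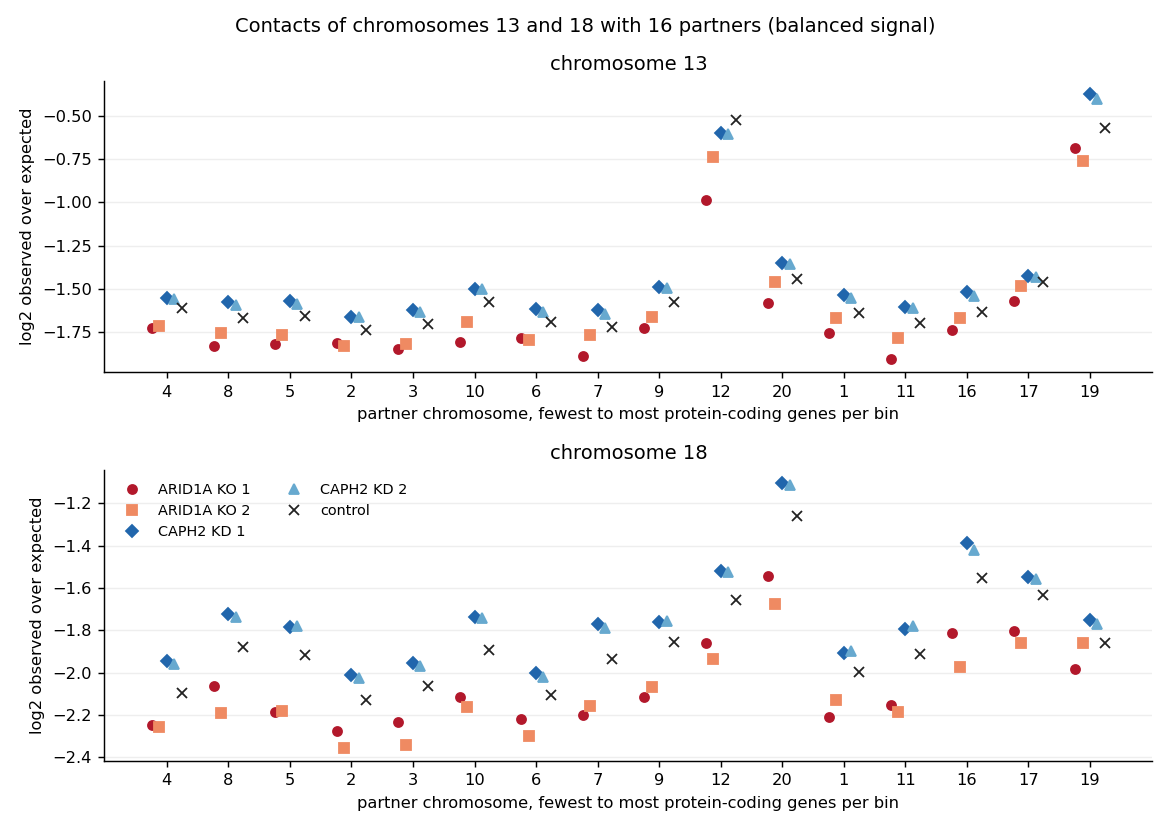
Log2 of observed over expected signal of chromosome 13 (top) and chromosome 18 (bottom) with each of 16 partners, ordered by protein-coding genes per bin, in the balanced signal. Each symbol is 1 library; for chromosome 18 both ARID1A KO libraries lie below the control with all 16 partners and both CAPH2 KD libraries above it.

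In the balanced signal all 16 pairs of chromosome 18 were lower in both ARID1A KO libraries than in the control, and 9 of them passed the test. All 16 pairs of chromosome 13 were lower too, and none passed, with 11 at an unadjusted limma p under 0.05, where 30.8% of all pairs were. Of all chromosome pairs 5.53% passed in this comparison, all lower, and 61.3% were lower in both libraries. The median log2 fold change was -0.24 over the pairs of chromosome 18, -0.11 over those of chromosome 13 and -0.04 over all pairs. The 15 pairs of chromosome 19 with the other partners had a median of 0.10, and none passed.

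The largest fall that passed was that of chromosomes 18 and 20. Its log2 fold change was -0.35 (SE 0.0595, limma adjusted p = 0.0491). Chromosomes 18 and 5 had -2.19 and -2.18 in ARID1A KO, -1.79 and -1.78 in CAPH2 KD and -1.92 in the control. The knockout libraries lay closer to each other than to any other library, and the fall of 0.27 had the smallest p (SE 0.0239, limma adjusted p = 0.0106). The others that passed were the pairs of chromosome 18 with 11 (log2 fold change -0.26), 10 (-0.25), 7 (-0.24), 12 (-0.24), 9 (-0.24), 17 (-0.20) and 4 (-0.16), with limma adjusted p from 0.0190 to 0.0473.

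Among those that did not pass, chromosomes 18 and 16 had -1.81 and -1.97 in ARID1A KO, -1.39 and -1.42 in CAPH2 KD and -1.55 in the control, with a log2 fold change of -0.34 (limma adjusted p = 0.0779). Chromosomes 18 and 19 had the smallest difference of that chromosome, -0.07 (limma adjusted p = 0.459), and chromosomes 18 and 6 had -0.15 (limma adjusted p = 0.102). On chromosome 13 the differences with chromosomes 12, 10 and 19 were largest, at -0.34, -0.17 and -0.15, and those with 17, 16 and 1 smallest, at -0.06, -0.07 and -0.07. The limma adjusted p of these 6 ran from 0.0983 to 0.362. The pair of both chromosomes themselves had -1.99 and -1.74 in ARID1A KO, -1.47 and -1.48 in CAPH2 KD and -1.57 in the control, with a log2 fold change of ARID1A KO against the control of -0.29 (limma adjusted p = 0.153).

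The fall depended on the scaling. With each library centred on its own median, 5 of the 16 pairs of chromosome 18 still passed, against 5.53% of all pairs, and 15 were lower in both knockout libraries, against 32.8% of all pairs. The median of chromosome 18 was then -0.19. In recovered contacts the median log2 fold change was 0.03 over the pairs of chromosome 18, 0.04 over those of chromosome 13 and -0.03 over the 15 pairs of chromosome 19. Of the 16 pairs of chromosome 18, 7 were higher and 4 lower in both knockout libraries, as were 26.1% and 48.6% of all pairs. There 3 of the 32 pairs passed, where 16.2% of all pairs did. Chromosomes 18 and 4 were higher, with -1.85 and -1.83 in ARID1A KO and -2.03 in the control (log2 fold change 0.18, limma adjusted p = 0.0160), which is the opposite direction to the balanced signal. Chromosomes 18 and 6 were higher as well (0.12, limma adjusted p = 0.0481). Chromosomes 13 and 12 were lower, with -0.98 and -0.98 in ARID1A KO, -0.93 and -0.93 in CAPH2 KD and -0.86 in the control (-0.13 for ARID1A KO against the control, limma adjusted p = 0.0198).

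Where the expectation used trans totals alone, which removes a shift shared by all pairs of a chromosome, none of the 32 pairs passed at a limma adjusted p of 0.05, against 0.395% of all pairs, and 3 had an unadjusted p under 0.05. Contacts within a bin also enter the totals. On chromosome 18 they made up 33.0% and 36.5% of all contacts in ARID1A KO, 29.5% and 30.0% in CAPH2 KD and 29.5% in the control. With them left out of the expectation 0 of the 32 pairs passed the limma test (0% of all pairs), and 11 had an unadjusted p under 0.05, 10 of them pairs of chromosome 18. The median was then -0.12 for chromosome 18, -0.04 for chromosome 13 and 0.03 over all pairs. In both knockout libraries 14 of the 16 pairs of chromosome 18 and 9 of chromosome 13 were lower, against 18.6% of all pairs. A few partners, picked here after their values were seen, stayed below the median of their chromosome in each of the 3 scalings. Chromosomes 16 and 20 were lower with chromosome 18 by -0.34 and -0.35 in the balanced signal, by -0.14 and -0.13 with trans totals and by -0.20 and -0.20 in recovered contacts. Chromosome 13 with 12 gave -0.34, -0.19 and -0.13, and with 19 it gave -0.15, -0.10 and -0.31, in the same order of scalings. Except for 13 with 12 in recovered contacts and 18 with 20 in the balanced signal, none of these passed the test.

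**Figure D3:**
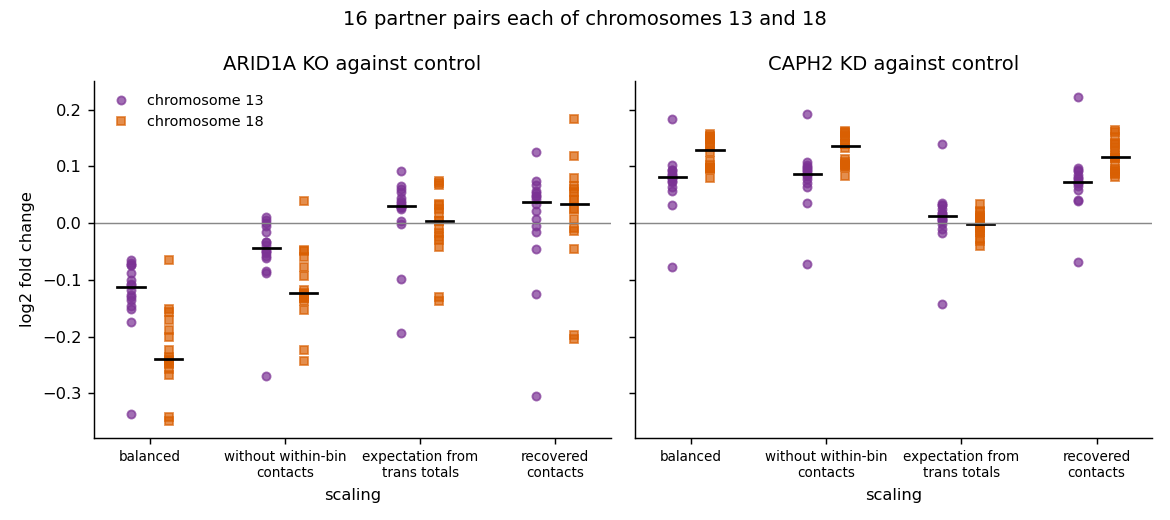
Log2 fold change of the 16 partner pairs of chromosome 13 and of chromosome 18, for ARID1A KO against control (left) and CAPH2 KD against control (right), under 4 scalings. Each symbol is a pair and each bar the median; the ARID1A KO median of chromosome 18 was -0.24 in the balanced signal and 0.03 in recovered contacts, while that of CAPH2 KD was 0.13 and 0.12.

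In CAPH2 KD all 16 pairs of chromosome 18 were higher in both libraries than in the control, as were 15 of the 16 pairs of chromosome 13. This was shared with 96% of all pairs. The median log2 fold change was 0.13 over the pairs of chromosome 18, 0.08 over those of chromosome 13 and 0.09 over all pairs. Of the 32 pairs 0 passed the limma test, as of all pairs (0%), and 12 had an unadjusted p under 0.05, a smaller share (37.5%) than of all pairs (48.6%). For chromosome 18 the largest differences were with chromosomes 7 (0.16), 20 (0.15) and 10 (0.15), and the smallest with 17 (0.08), 9 (0.10) and 6 (0.10). The limma adjusted p of these 6 ran from 0.0789 to 0.12.

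For chromosome 13 the largest were with chromosomes 19 (0.18), 16 (0.10) and 20 (0.09), and the smallest above 0 with 17 (0.03) and 4 (0.06). The pair with chromosome 12 was the only one of the 32 lower in both libraries, as 1.98% of all pairs were (-0.08, limma adjusted p = 0.526). In recovered contacts the sizes were alike, with medians of 0.12 for chromosome 18, 0.07 for chromosome 13 and 0.08 over all pairs. There 8 pairs of chromosome 18 rose and 1 pair of chromosome 13, that with chromosome 12, fell, where 47% of all pairs passed. The 8 were those with chromosomes 2, 4, 5, 6, 7, 10, 12 and 17. Under an expectation from trans totals the medians were 0.00 for chromosome 18 and 0.01 for chromosome 13, where again 0 pairs passed the limma test, of the 32 and of all pairs (0%), with 0 of the 32 at an unadjusted p under 0.05.

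ARID1A KO was then set against CAPH2 KD, where both sides have a replicate. All 32 pairs were lower in both ARID1A KO libraries than in both CAPH2 KD libraries, and all 16 pairs of chromosome 18 and 15 of chromosome 13 passed. Of all chromosome pairs 72.3% passed, 70.8% with a lower value, and 84.2% were lower without overlap, so most of this count was shared with the other chromosomes. The median log2 fold change was -0.35 for chromosome 18, -0.20 for chromosome 13 and -0.13 over all pairs. The largest were chromosome 18 with 20 (-0.50), 16 (-0.49) and 5 (-0.40), and chromosome 13 with 19 (-0.34), 12 (-0.26) and 10 (-0.25). The smallest were chromosome 18 with 19 (-0.16), 6 (-0.25) and 1 (-0.27), and chromosome 13 with 17 (-0.10), 2 (-0.16) and 6 (-0.16). All of these but 13 with 17 (limma adjusted p = 0.0579) passed.

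In recovered contacts the medians came to -0.10 for chromosome 18 and -0.05 for chromosome 13, against -0.10 over all pairs. There 13 of the 32 pairs passed, 12 lower and 1 higher, where 66% of all pairs did. The largest was chromosome 13 with 19, at -0.69 and -0.83 in ARID1A KO, -0.20 and -0.26 in CAPH2 KD and -0.45 in the control (ARID1A KO against CAPH2 KD -0.53, limma adjusted p = 0.00342). With trans totals in the expectation 1 of the 32 pairs passed, as higher, where 9.49% of all pairs did. For chromosomes 13 and 19 the 3 groups did not overlap in either form of the data. The parts of this order were shared with many other pairs. In the balanced signal 61.3% of all pairs were lower in both ARID1A KO libraries than in the control. In both CAPH2 KD libraries 96% were higher than in the control. In recovered contacts these shares were 48.6% and 96%.

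The trans share varied along the chromosomes. On chromosome 18 the control had its highest log2 trans over cis at the last bin, chr18:77000001-78000000 (0.29), the first, chr18:1-1000000 (0.28), and the bin before the gap at the centromere, chr18:13000001-14000000 (0.13). It was lowest in the middle of the long arm, at chr18:39000001-40000000 (-1.35), chr18:37000001-38000000 (-1.30) and chr18:35000001-36000000 (-1.23). The 14 bins of the short arm had a median of -0.53 and -0.49 in ARID1A KO, -0.12 and -0.11 in CAPH2 KD and -0.30 in the control. The 60 bins of the long arm had -1.18 and -1.09 in ARID1A KO, -0.68 and -0.67 in CAPH2 KD and -0.91 in the control.

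On chromosome 13 the highest bins of the control were chr13:45000001-46000000 (1.17), the bin starting at chr13:114000001 (0.97) and chr13:20000001-21000000 (0.94), and the lowest were chr13:86000001-87000000 (-0.88), chr13:85000001-86000000 (-0.86) and chr13:82000001-83000000 (-0.76). The first of these holds a strong join, and the other high ones are the last and the first bin used.

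In ARID1A KO 65 of the 74 bins of chromosome 18 and 51 of the 95 bins of chromosome 13 had a lower trans share than the control in both libraries, where 19.6% of all bins did. A higher share in both was seen in 1 bin of chromosome 18 and 8 of chromosome 13, against 39.8% of all bins. No bin passed the limma test among the 169 or among all 2772 bins (0%), and 38 of the 169 had an unadjusted p under 0.05, against 6.78% of all bins. The medians were -0.20 on chromosome 18 and -0.18 on chromosome 13, against 0.04 over all bins and 0.26 on chromosome 19. The smallest p on chromosome 18 was at chr18:67000001-68000000, with -1.17 and -1.20 in ARID1A KO, -0.72 and -0.72 in CAPH2 KD and -0.87 in the control (limma adjusted p = 0.685). The bins chr18:70000001-71000000 and chr18:72000001-73000000 followed, with log2 fold changes of -0.31 and -0.27. On chromosome 13 the 3 with the smallest p were chr13:83000001-84000000 (-0.22), the bins starting at chr13:105000001 (-0.32) and chr13:108000001 (-0.15). On chromosome 19 they were chr19:58000001-59000000 (0.39), chr19:11000001-12000000 (0.35) and chr19:37000001-38000000 (0.36).

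Counted as recovered contacts, the same bins turned the other way on chromosome 18, where 67 of 74 were higher in both ARID1A KO libraries and 0 lower, with a median of 0.16. On chromosome 13, 58 of 95 were higher and 8 lower, with a median of 0.06. Of all bins 48.9% were higher and 11.6% lower in both libraries there, and the median over all was 0.07. On chromosome 19 the median was 0.02.

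In CAPH2 KD all 74 bins of chromosome 18 and 93 of 95 bins of chromosome 13 had a higher trans share than the control in both libraries, as did 99.4% of all bins. A lower share in both was seen in 0 bins of chromosome 18 and 1 of chromosome 13, against 0.253% of all bins. The median was 0.23 on chromosome 18, 0.14 on chromosome 13 and 0.16 over all bins, and in recovered contacts it was 0.23, 0.13 and 0.16. No bin passed the limma test (0% of all bins, smallest adjusted p = 0.216), and 51 of the 169 had an unadjusted p under 0.05, against 20.7% of all bins. The smallest p on chromosome 18 were at chr18:27000001-28000000 (0.31), chr18:24000001-25000000 (0.29) and chr18:25000001-26000000 (0.29), which are neighbours on the long arm. On chromosome 13 they were at chr13:23000001-24000000 (0.22), chr13:22000001-23000000 (0.22) and chr13:29000001-30000000 (0.21), near its first bins. Chromosome 18 stood above the median of all bins, and with each library centred on its own median its bins still had a median of 0.07, with 60 of 74 higher in both libraries, against 42.4% of all bins.

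Against CAPH2 KD, 73 of 74 bins of chromosome 18 and 86 of 95 bins of chromosome 13 were lower in both ARID1A KO libraries, where 63.6% of all bins were. The medians were -0.42 and -0.27, against -0.12 over all bins. No bin passed (0%, smallest limma adjusted p = 0.0754), and 39 bins of chromosome 13 and 72 of chromosome 18 had an unadjusted p under 0.05, against 31.3% of all bins. In recovered contacts the medians were -0.08 and -0.06, against -0.09 over all bins.

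Contacts per bin in ARID1A KO changed along chromosome 13 in steps that differed between its 2 libraries. The cuts below were set after seeing the profile, at the bins of its strongest joins. From chr13:20000001-44000000, a run of 24 bins, contacts per bin were 1.09 and 1.01 times the control (medians). From chr13:47000001-110000000, 63 bins, they were 0.554 and 0.791 times the control, with a lowest bin of 0.416 and 0.599. In the last 5 bins, starting at chr13:110000001, they were 1.30 and 1.23 times the control. In the first ARID1A KO library the ratio was 1.44 at chr13:45000001-46000000 and 0.743 in the next bin, while in the second it was 1.17 and 1.12. In CAPH2 KD no segment's median lay outside 0.974 to 1.04.

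The trans share of chromosome 13 was compared over the same segments. Between the joins, log2 trans over cis was 0.42 below the control in the first ARID1A KO library and 0.03 below it in the second (medians of balanced signal, -0.42 and -0.03). In recovered contacts the same medians were 0.05 and 0.15 above the control. Before the joins the balanced medians were -0.01 and 0.05. In the last 5 bins, where contacts were above the control, they were -0.07 and -0.04. Over the 95 bins the difference in trans share from the control correlated with the log2 ratio of contacts, with r of 0.84 and 0.63 in the ARID1A KO libraries in the balanced signal and of -0.24 and -0.27 in recovered contacts. Bins of a library share its depth and neighbours are alike, so these are descriptions. On chromosome 18 the same r were 0.23 and 0.52 in the balanced signal and -0.20 and 0.39 in recovered contacts.

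Contacts per bin of chromosome 18 were below the control in every window in ARID1A KO, but their level varied along it. Over windows of 10 Mb the median log2 ratio to the control lay between -0.33 and -0.86 in the first library and between -0.35 and -1.01 in the second. The lowest was the window chr18:60000001-70000000, which overlaps the longest B run described further on, and the highest was chr18:40000001-50000000. That highest window had -0.33 and -0.35, against -0.80 and -0.84 in the window before it and -0.67 and -0.69 in the window after it. In CAPH2 KD no window was outside -0.09 to 0.07.

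**Figure D4:**
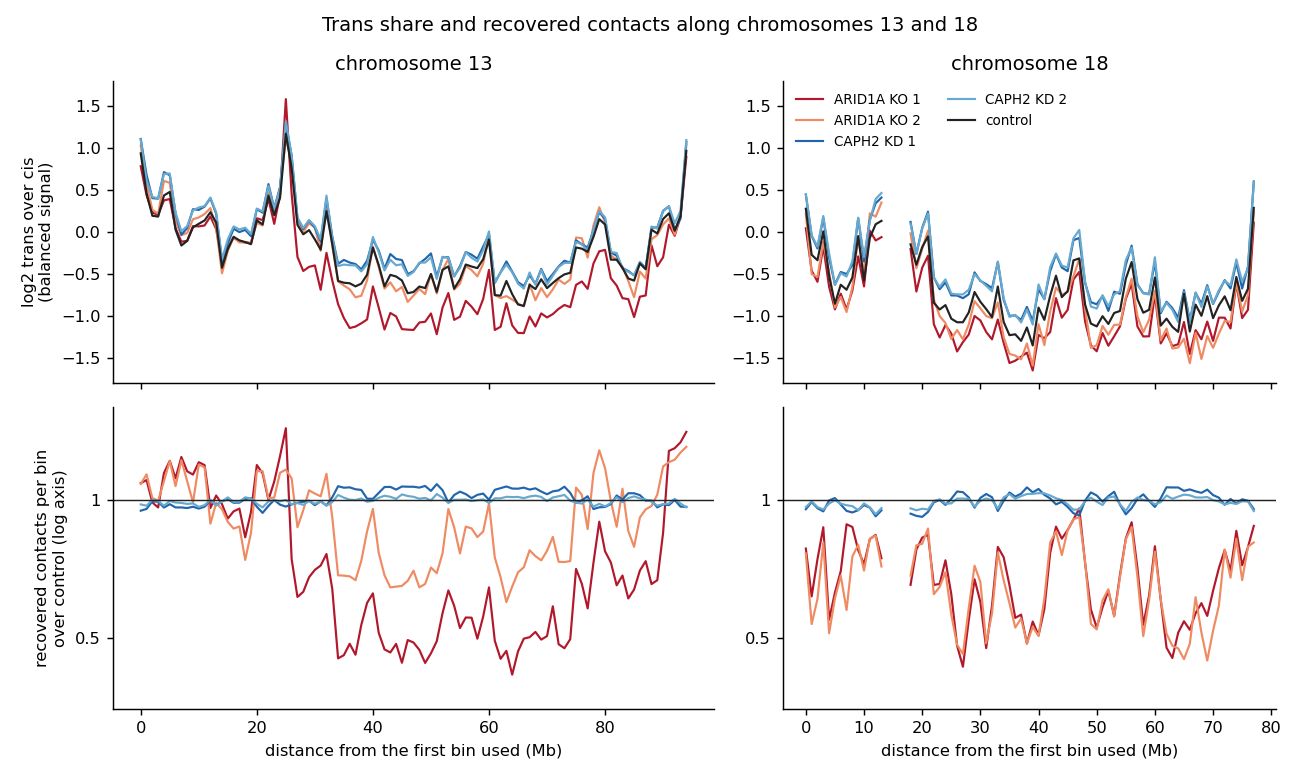
Log2 of trans over cis contacts in the balanced signal (top) and recovered contacts per bin as a ratio to the control (bottom, log axis) along chromosome 13 (left) and chromosome 18 (right), against distance from the first bin used. Each line is 1 library; on chromosome 13 the first ARID1A KO library falls in both panels over the 63 bins between the joins, to a median of 0.554 times the control's contacts.

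Single bin pairs with very strong trans signal, called joins here, were found on both chromosomes. Whether a join is a rearrangement of the DNA or contact in space was not tested. The strongest of chromosome 13 was chr13:44000001-45000000 with chr12:53000001-54000000, at an observed over expected signal of 170 and 205 in ARID1A KO, 184 and 187 in CAPH2 KD and 195 in the control. It rested on 1494 and 1225 contacts in ARID1A KO, 1461 and 2312 in CAPH2 KD and 1383 in the control. The next bin, chr13:45000001-46000000, had 121 and 102, 115 and 114, and 116 with the same bin of chromosome 12, in the same order of libraries. Both joins were present in all 5 libraries. The second took 4.76% and 2.62% of all contacts of its bin on chromosome 13 in ARID1A KO, 2.65% and 2.68% in CAPH2 KD and 2.71% in the control, so the first ARID1A KO library stood above the rest. For the first join the shares were 5.70% and 5.05% in ARID1A KO, 3.93% and 4.03% in CAPH2 KD and 4.23% in the control. The bin chr13:46000001-47000000 was joined to chr19:40000001-41000000, at 79.0 and 51.9 in ARID1A KO, 57.5 and 52.6 in CAPH2 KD and 54.3 in the control. With bin pairs near such joins left out, the pair of chromosomes 13 and 12 had a log2 fold change of -0.35 and that of 13 and 19 of -0.13 in ARID1A KO, and neither passed the limma test (adjusted p = 0.121 and 0.0640).

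One join of chromosome 13 lay outside the 16 partners and was nearly missing from a single library. The bin starting at chr13:110000001 had 5 contacts with chr14:74000001-75000000 in the first ARID1A KO library, against 338 in the second, 486 and 735 in CAPH2 KD and 467 in the control. The counting intervals (95%, exact Poisson) of the ARID1A KO libraries were 1.62 to 11.7 and 303 to 376. Observed over expected signal was 1.66 in the first ARID1A KO library and lay between 48.6 and 57.2 in the others. This bin is also where contacts per bin in that library came back up. Whether the join and the step belong together was not tested.

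On chromosome 18 the bin chr18:11000001-12000000 was joined to chr1:52000001-53000000, at 167 and 190 in ARID1A KO, 138 and 131 in CAPH2 KD and 144 in the control, and to the 1 Mb bin starting at chr1:235000001, at 74.8 and 72.1, 60.5 and 57.9, and 61.5 in the same order. The same bin was joined to chr15:90000001-91000000 in all 5 libraries, at 97.8 and 99.1 in ARID1A KO, 69.1 and 72.1 in CAPH2 KD and 70.1 in the control. All 3 joins were higher in both ARID1A KO libraries than in the other 3. They share the bin chr18:11000001-12000000 and are scaled by its trans total, so they are not separate observations. For the joins of chromosome 13 named above this order of observed over expected signal was not seen. How many other strong joins had it was not counted.

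A weaker bin pair of chromosome 18, which stayed under the limit of 50 for a strong join in every library, split the knockout libraries. The bin chr18:3000001-4000000 had 0 contacts with chr5:56000001-57000000 in the first ARID1A KO library, which allows up to 3.69 (exact Poisson, 95%), and 85 in the second. CAPH2 KD had 37 and 53, and the control 35. Observed over expected signal was 0 and 47.1 in ARID1A KO, 10.1 and 9.18 in CAPH2 KD and 10.4 in the control. The ARID1A KO libraries lay on either side of all others in this bin pair, while in the join of chromosome 13 with chromosome 14 the first stood apart alone. Intervals cover counting error only.

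Within the chromosomes, both knockout libraries had fewer far contacts on chromosome 18. Of its contacts between different bins, 1.46% and 1.25% spanned 50 to 100 Mb in ARID1A KO, 1.76% and 1.78% in CAPH2 KD and 2.08% in the control. The 3 groups did not overlap, and the log2 fold change was -0.62 for ARID1A KO against the control (SE 0.10, limma adjusted p = 0.129). At 20 to 50 Mb it had 11.9% and 10.6% in ARID1A KO, 12.7% and 12.6% in CAPH2 KD and 14.4% in the control (-0.36, limma adjusted p = 0.130). At 10 to 20 Mb it had 9.78% and 8.82%, 9.79% and 9.88%, and 10.4% (-0.16, limma adjusted p = 0.326). Neighbouring bins, under 2 Mb apart, made up 45.9% and 48.8% in ARID1A KO, 45.0% and 44.9% in CAPH2 KD and 43.3% in the control (0.13, limma adjusted p = 0.267). The shares at 2 to 5 Mb and 5 to 10 Mb had log2 fold changes of 0.05 and 0.02.

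The far classes of chromosome 18 kept their direction in recovered contacts, with -0.53 at 50 to 100 Mb, -0.36 at 20 to 50 Mb and -0.15 at 10 to 20 Mb, and the class under 2 Mb had 0.14. The small difference at 2 to 5 Mb was 0.02 there, and that at 5 to 10 Mb was 0.00. Of the 12 distance classes of both chromosomes 0 passed the limma test, as of all 149 classes (0%), and 4 had an unadjusted p under 0.05, against 22.8% of all classes. Of all classes 41.6% were lower in both ARID1A KO libraries and 23.5% higher, and at 20 to 50 Mb all 23 chromosomes were lower, with a median of -0.21. The class of 50 to 100 Mb had a median of -0.21 over 21 chromosomes.

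Chromosome 13 had 2.11% and 2.00% at 50 to 100 Mb in ARID1A KO, 2.28% and 2.27% in CAPH2 KD and 2.33% in the control (-0.18, limma adjusted p = 0.162), but in recovered contacts the difference was 0.10. At 20 to 50 Mb it had 10.7% and 10.6%, 11.1% and 10.9%, and 11.8% (-0.15, limma adjusted p = 0.148; -0.25 in recovered contacts). At 10 to 20 Mb, 5 to 10 Mb, 2 to 5 Mb and under 2 Mb the log2 fold changes were -0.08, -0.01, 0.00 and 0.06, and in recovered contacts -0.15, -0.07, -0.04 and 0.12. Whether these differ from chromosome 18 was not tested. Chromosome 19 had -0.20 at 20 to 50 Mb and 0.12 at 50 to 100 Mb, a class that held 0.187% and 0.179% of its contacts in ARID1A KO and 0.168% in the control.

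In CAPH2 KD the log2 fold changes on chromosome 18 were -0.24 at 50 to 100 Mb, -0.19 at 20 to 50 Mb, -0.08 at 10 to 20 Mb and 0.06 under 2 Mb. Chromosome 13 had -0.04, -0.10, -0.12 and 0.04 in the same classes. Of the 12 classes 0 passed the limma test (0% of all 149), with 2 at an unadjusted p under 0.05, against 14.1% of all classes. Of all classes 52.3% were lower in both CAPH2 KD libraries and 46.3% higher. ARID1A KO against CAPH2 KD gave -0.39 at 50 to 100 Mb on chromosome 18 (limma adjusted p = 0.0628) and -0.15 on chromosome 13 (limma adjusted p = 0.108). In recovered contacts these were -0.27 on chromosome 18 and 0.17 on chromosome 13, where the direction turned. Of the 12 classes 0 passed in that comparison, with 3 at an unadjusted p under 0.05, against 24.2% of all classes, where 10.7% of all classes passed.

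**Figure D5:**
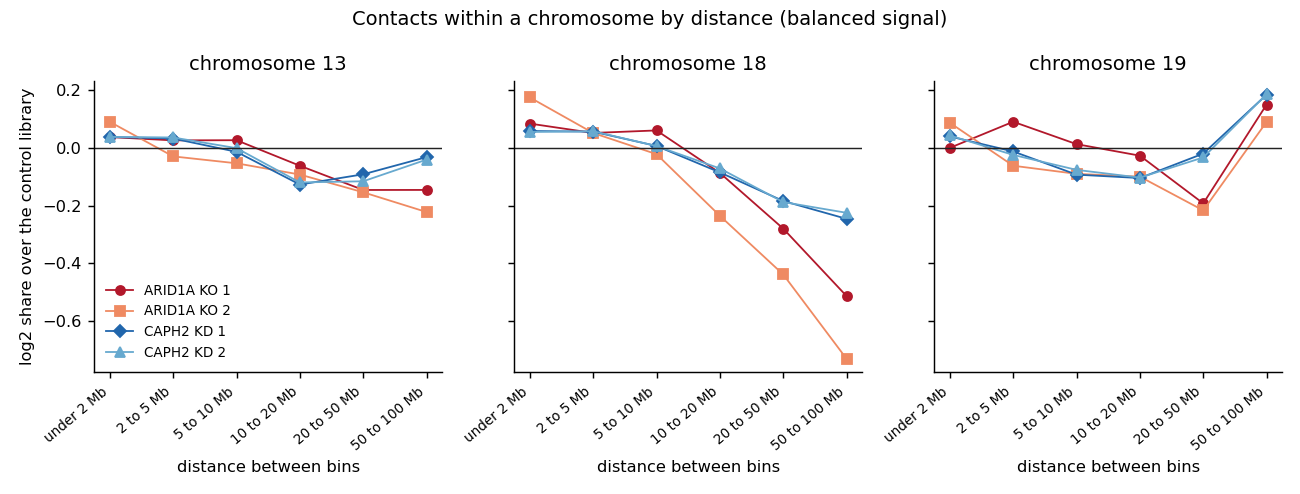
Log2 share of a chromosome's contacts between different bins by distance class, minus the control library, in the balanced signal. Each line is 1 library and 0 is the control; on chromosome 18 the far classes lie lowest, with a log2 fold change of -0.62 in ARID1A KO at 50 to 100 Mb, against -0.18 on chromosome 13.

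The A and B regions of both chromosomes were taken from the first eigenvector of the balanced map, with A set to the side of higher trans share in the control, and are described without a test. In the control chromosome 13 had 35 A bins of 95, in 4 runs, of which the longest, 27 bins, covered chr13:20000001-47000000, followed after a short B run by a single A bin and a B run of 46 bins at chr13:53000001-99000000. Chromosome 18 was cut finer, with 24 A bins of 74 in 13 runs, the longest 6 bins at chr18:42000001-48000000. Its longest B run had 11 bins, at chr18:61000001-72000000. The longest A run of chromosome 13 ends at the bin joined to chromosome 19, near the step in contacts per bin in ARID1A KO. Whether the eigenvector there follows A and B or this boundary was not tested.

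The eigenvectors of chromosome 18 correlated with that of the control at r = 0.93 and 0.95 in ARID1A KO and 0.98 and 0.98 in CAPH2 KD, and those of chromosome 13 at 0.97 and 0.99 in ARID1A KO and 0.99 and 1.00 in CAPH2 KD. In both ARID1A KO libraries 3 bins of chromosome 18 changed side, chr18:7000001-8000000, chr18:13000001-14000000 and chr18:42000001-43000000, and the first and last of these changed in both CAPH2 KD libraries as well. On chromosome 13 a single bin changed in each group, chr13:52000001-53000000 in ARID1A KO and chr13:99000001-100000000 in CAPH2 KD.

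Counted in each library alone, 6 and 5 bins of chromosome 18 lay on the other side than in the control in ARID1A KO, and 3 and 3 in CAPH2 KD. On chromosome 13 these were 5 and 2 in ARID1A KO, and 3 and 2 in CAPH2 KD. The split was less steady in recovered contacts, where chromosome 18 had 38 and 32 A bins in ARID1A KO, 22 and 23 in CAPH2 KD and 23 in the control. Against the balanced control, 14 and 8 of its bins were then on the other side in ARID1A KO, 2 and 3 in CAPH2 KD and 1 in the control itself. The separation of A and B, as the signal within each kind over that between them, was 2.28 and 2.64 on chromosome 18 in ARID1A KO, 2.57 and 2.69 in CAPH2 KD and 2.54 in the control. The ARID1A KO libraries lay on both sides of the control. On chromosome 13 it was 3.05 and 3.13 in ARID1A KO, 3.56 and 3.61 in CAPH2 KD and 3.36 in the control, so the 3 groups did not overlap, and in recovered contacts they kept this order at 3.14 and 3.26, 3.71 and 3.74, and 3.49. Chromosome 19 had 3.02 and 3.39 in ARID1A KO, 4.95 and 5.26 in CAPH2 KD and 5.08 in the control. The separation was not taken on other chromosomes, so the order seen on chromosome 13 is not read as particular to it. On chromosome 13 the balanced signal of the control was 0.89 times the expected within A, 1.72 within B and 0.39 between them. Within A it was 0.88 and 0.86 in ARID1A KO and 0.85 and 0.85 in CAPH2 KD. In recovered contacts the value within A was 1.21 and 0.81 in ARID1A KO and 0.64 in the control.

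The same separation ratio was taken between chromosomes, with bins of the partners split by their trans share in the control. For chromosome 18 it was 1.72 and 1.89 in ARID1A KO, 2.03 and 2.08 in CAPH2 KD and 1.87 in the control. Contacts of its B bins with low trans share bins of the partners were 1.42 and 1.5 times the expected in ARID1A KO, 1.52 and 1.54 in CAPH2 KD and 1.44 in the control. For chromosome 13 the ratio was 1.55 and 1.58 in ARID1A KO, 1.83 and 1.87 in CAPH2 KD and 1.66 in the control, and 1.56 and 1.59, 1.82 and 1.86, and 1.66 in recovered contacts. Both CAPH2 KD libraries lay above the control on both chromosomes. Both ARID1A KO libraries lay below it on chromosome 13, and on both sides of it on chromosome 18. This ratio was not taken for other chromosomes, so neither order is read as particular to chromosomes 13 and 18.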

How the data were processed

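Contacts were read from 5 in situ Hi-C maps of 1 Mb bins. The deposited values are signal, balanced by the authors so that nearly all bins of a library share 1 total. Per the submitters' processing notes the tool was Bowtie2 and the genome build hg19; the balancing program is not given in the sources used here. Contact numbers behind the deposited signal were recovered by finding each bin's factor: 98.1 to 99.1% of values above 0 came out whole within 0.05 and nearly all others midway between whole numbers. These recovered contacts are estimates, and no count model was used. Of 2811 bins measured in all libraries, 39 with recovered totals under 0.25 of the median were left out.

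Log2 values were fitted with limma 3.58.1 in R 4.3.3, all 5 libraries and 3 groups in 1 fit. A pseudocount of 0.5 was added per bin. Benjamini-Hochberg adjustment ran over all chromosome pairs, all differences between chromosomes, all 149 distance classes or all 2772 bins, with a threshold of 0.05. Named regions were every pair called, the 3 partners with the largest and the 3 with the smallest change, all distance classes, and on each chromosome the 3 bins with the smallest p, the highest level and the lowest level. A strong join had an observed over expected signal of at least 50 and at least 50 contacts in a library. The scripts were tested on simulated data. Tables were made with numba 0.67.0, scipy 1.17.1, pandas 2.3.3 and numpy 2.4.6 under Python 3.11.15, and figures with matplotlib 3.10.9.

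Replicate numbers did not pair the samples: the correlation of the deviations of same-numbered libraries was 0.06 over chromosome pairs, -0.24 over distance classes, 0.04 over bins and -0.03 over differences between chromosomes. The 2 replicates of a group differed by more than counting noise, with a chi-square per degree of freedom of 156 in ARID1A KO and 12.4 in CAPH2 KD. The chromosomes, partners and lists were chosen with earlier results of these data known.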

Additional observations from a re-analysis of the deposited data

How the results depend on the processing

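Of the 32 pairs, 9 passed for ARID1A KO against the control; 3 did with the CAPH2 KD libraries averaged, 3 in recovered contacts, 5 with each library centred, 0 with trans totals, 0 without contacts within a bin, and 3 to 32 with 1 library left out. For CAPH2 KD against the control it was 0, 9 in recovered contacts and 0 to 32 with 1 left out. For ARID1A KO against CAPH2 KD it was 31, then 19 averaged, 13 recovered, 15 centred, 1 with trans totals, 14 without contacts within a bin and 18 to 32 with 1 left out. Of the 12 distance classes, ARID1A KO against the control had 0, 1 averaged, 2 without the class under 2 Mb, 1 with contacts within a bin kept and 1 to 12 with 1 left out; CAPH2 KD had 0 to 10 with 1 left out; ARID1A KO against CAPH2 KD had 4 without the class under 2 Mb, 1 with contacts within a bin kept and 0 to 11 with 1 left out. Of the 169 bins, 0 passed in each comparison; with 1 left out it was 0 to 145 for ARID1A KO and 0 to 160 for CAPH2 KD against the control and 0 to 167 for ARID1A KO against CAPH2 KD, which had 143 with contacts within a bin kept, where 64.9% of all bins passed.

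Chromosome 18 minus 19 stayed at -0.43 for ARID1A KO against the control with the CAPH2 KD libraries averaged (limma adjusted p = 0.319), lay between -0.47 and -0.39 with 1 left out and reversed to 0.12 in recovered contacts. For CAPH2 KD it was 0.0586 to 0.0751 with 1 left out. For ARID1A KO against CAPH2 KD it was -0.50 averaged (limma adjusted p = 0.138), -0.54 to -0.46 with 1 left out and 0.0751 recovered. Chromosome 13 minus 19 gave -0.39 averaged (limma adjusted p = 0.319), -0.44 to -0.34 with 1 left out, 0.0636 recovered and -0.30 with contacts within a bin kept (limma adjusted p = 0.214); for CAPH2 KD -0.0170 to -0.0125 with 1 left out; and for ARID1A KO against CAPH2 KD -0.37 averaged (limma adjusted p = 0.161), -0.42 to -0.32 with 1 left out, 0.12 recovered and -0.30 with contacts within a bin kept (limma adjusted p = 0.111). The high counts came without either ARID1A KO library, where the spread comes from the CAPH2 KD libraries alone, and the lower counts of pairs without either CAPH2 KD library. The cause of the other changes was not tested. For ARID1A KO against CAPH2 KD 72.3% of all pairs passed in the balanced signal, 66% in recovered contacts and 9.49% with trans totals. With each library centred 34 of all pairs passed as lower, 15 of them among the 32, and 30 as higher. Without contacts within a bin 31 of all pairs passed as lower, 14 of them among the 32, and 4 as higher. Where a count here has no share over all features beside it, it is not read as particular to chromosomes 13 and 18.

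With the replicate block, which rests on shared numbers only, 13, 0 and 31 pairs, 1, 0 and 1 distance classes and 0, 0 and 102 bins (the last against 8.08% of all bins) passed for ARID1A KO and CAPH2 KD against the control and ARID1A KO against CAPH2 KD; chromosome 18 minus 19 was -0.42, 0.08 and -0.50, and chromosome 13 minus 19 was -0.41, -0.04 and -0.37. With the numbers crossed, a pairing chosen after seeing the data, 2, 0 and 1 distance classes passed. Depth limits the ARID1A KO libraries most, where 26.6% and 27.0% of trans bin pairs held no contact, against 14.2% in the control.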
